A study of Mus musculus with 6 samples.

Results

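The genes of the bile acid feedback loop studied here were Nr1h4, which encodes the bile acid receptor FXR, Rxra, which encodes its dimer partner RXR alpha, Nr0b2, which encodes the small heterodimer partner SHP, and Nr5a2, which encodes LRH-1. Their FXR binding sites were taken from the peak lists of FXR chromatin immunoprecipitation sequencing (ChIP-seq) in mouse liver, as every peak that had been assigned to 1 of these 4 genes by its nearest promoter. This gave 47 of 32535 peaks, of which 32 of 20040 were in the WT list and 15 of 12495 in the LKO list. WT denotes C57BL/6 Bcl6 fl/fl mice, which carry floxed Bcl6 alleles without Cre. LKO denotes C57BL/6 Alb-cre, Bcl6 fl/fl mice, which carry the same floxed alleles and a Cre driven by the albumin promoter that deletes the repressor gene Bcl6 in hepatocytes, while other liver cells keep it. All livers were from males, the ages were not given in the sources used here, and from each genotype came 2 libraries of FXR ChIP and 1 of input, which is sonicated chromatin sequenced without the antibody step. Peaks had been called after pooling the ChIP replicates, so that a peak being present or absent had no replicate count behind it.

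FXR binds DNA with RXR and recruits coactivators when bile acids are bound. The classical site is an inverted repeat of the nuclear receptor half-site with a single base between the repeats, called IR1. FXR activates Nr0b2, and its product SHP, which has no DNA-binding domain of its own, represses other factors by binding them. Among these is LRH-1, which activates Cyp7a1, the gene of the rate-limiting enzyme of bile acid synthesis. Through this loop bile acids lower their own synthesis, and each of the 4 genes encodes one of its components.

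The sequences of the binding sites that carry the results are given first. The peaks shown are those at the promoter and just past the end of Nr0b2 and the strongest peak found in both genotypes at Rxra and at Nr1h4, on the plus strand of mm10 (GRCm38) over the WT peak. Capitals mark the stretch in each peak that came closest to the IR1 letters AGGTCANTGACCT, in which N is any base.
Nr0b2 promoter, chr4:133552953-133553163: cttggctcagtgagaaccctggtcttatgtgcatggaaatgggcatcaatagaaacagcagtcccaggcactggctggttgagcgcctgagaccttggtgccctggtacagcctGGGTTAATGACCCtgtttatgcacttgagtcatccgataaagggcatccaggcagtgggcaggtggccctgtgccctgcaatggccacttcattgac
Nr0b2 gene end, chr4:133557486-133557696: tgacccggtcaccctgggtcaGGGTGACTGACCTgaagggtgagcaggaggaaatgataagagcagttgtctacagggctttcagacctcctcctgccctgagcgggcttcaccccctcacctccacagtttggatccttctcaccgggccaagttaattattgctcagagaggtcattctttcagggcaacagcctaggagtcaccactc
Rxra 79.3 kb upstream, chr2:27597064-27597274: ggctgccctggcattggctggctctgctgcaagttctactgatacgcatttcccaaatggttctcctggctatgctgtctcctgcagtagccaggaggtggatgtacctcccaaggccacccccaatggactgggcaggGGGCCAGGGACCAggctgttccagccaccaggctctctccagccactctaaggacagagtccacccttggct
Nr1h4 19.6 kb upstream, chr10:89553137-89553347: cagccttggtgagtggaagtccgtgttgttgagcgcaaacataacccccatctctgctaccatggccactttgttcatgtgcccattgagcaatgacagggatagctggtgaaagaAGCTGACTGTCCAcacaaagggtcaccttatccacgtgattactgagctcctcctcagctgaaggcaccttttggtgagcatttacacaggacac
The Nr0b2 promoter peak lay in front of the gene, and none of these 4 peaks overlapped an annotated exon.

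Of the 12 scored bases of the IR1, 4 of 32 WT member peaks matched all but 2 or fewer within 100 bp of the peak center. They lay at the Nr0b2 gene end, 60.2 and 74.4 kb upstream of Nr5a2 and in intron 1 of Rxra. Of these matches 3 and, for comparison, the best stretch of the Nr0b2 promoter are given below, with capitals now marking the bases that equal the IR1 letters.
Nr0b2 gene end, 2 mismatches: gGGTgAcTGACCT
Nr5a2 74.4 kb upstream, 1 mismatch: AtGTCAgTGACCT
Rxra intron 1, 9.93 kb into the gene, 2 mismatches: AGGTCAtTGcCCa
Nr0b2 promoter, 3 mismatches: gGGTtAaTGACCc
The share of 12.5% with an IR1 among WT member peaks lay beside 11.9% of all WT peaks and 0.973% of windows of the same length 2 kb away from the peaks. In the LKO list 2 of 15 member peaks held it, which was 13.3% beside 16.3% of all LKO peaks, and both were the Nr5a2 peaks upstream of the gene. The Nr0b2 gene-end peak was not counted in LKO because its center lay 46 bp from that of the WT peak, which left the match out of the window.

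Other nuclear receptor letters were searched on both strands in the same windows. The half-site AGGTCA, which the other searched repeats contain, was in 13 of 32 WT member peaks, equal to 40.6%, and in 40.6% of all WT peaks. A direct repeat with 1 spacer base, AGGTCANAGGTCA with up to 2 mismatches, was in 5 WT member peaks (15.6%) and in 13.2% of all WT peaks. The extended half-site bound by LRH-1, TCAAGGTCA with up to 1 mismatch, was also in 5 WT member peaks, beside 15.4% of all WT peaks and 7.69% of the windows 2 kb away. The WT peaks with LRH-1 letters lay 10.1 kb from the Nr0b2 start, 15.1 kb into Nr1h4 and at Nr5a2, the gene of LRH-1. Those of Nr5a2 were 48.3 and 64.4 kb into the gene and 74.4 kb upstream, where the letters overlapped the IR1 match. The core TTCNNNGAA of STAT and BCL6 motifs was in 2 WT member peaks, beside 6.84% of all WT peaks. In LKO it was in 3 of 15 member peaks, beside 6.55% of all LKO peaks, and the half-site was in 8 of 15 beside 41.7%. The LKO peaks with the core included the shared Rxra site 51.4 kb upstream, which was not counted in WT. The half-site was likewise counted in LKO alone at the shared Nr1h4 peak. The WT and LKO centers lay 42 bp apart at the Rxra site and 75 bp at the Nr1h4 site, so that the searched windows differed.

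The peaks were spread unevenly over the loop. In WT livers, Nr5a2 had 15 peaks, Rxra 10, Nr1h4 4 and Nr0b2 3, and in LKO livers Nr5a2 had 6, Rxra 5, Nr0b2 3 and Nr1h4 1. Of the 9025 genes with a WT peak, 11 had more peaks than Nr5a2 and 92 more than Rxra, while 1485 had more than Nr0b2. These counts were not adjusted for gene length, which was 117.9 kb for Nr5a2, 86.9 kb for Rxra, 79.4 kb for Nr1h4 and 3.31 kb for Nr0b2. Peaks assigned to Nr5a2 also reached as far as 486.6 kb upstream. By position within 20 kb of the 4 genes, the WT count was 25, of which 3 carried another gene name. The part of gene length in the peak numbers was not tested. In the strength of a single peak the order was different, because Nr0b2 held the strongest site of the loop in both genotypes. Strength is the mean over the 2 ChIP libraries of the deposited log2 tag value of a peak, taken to be a regularized log2, in which low counts are drawn toward the mean of the peak. It is given below as a rank or a percentile within the peak list of the genotype. The map of peak positions shows the dense row of sites over Nr5a2, the remote cluster in front of Rxra and the tall, close sites of Nr0b2.

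**Figure D1:**
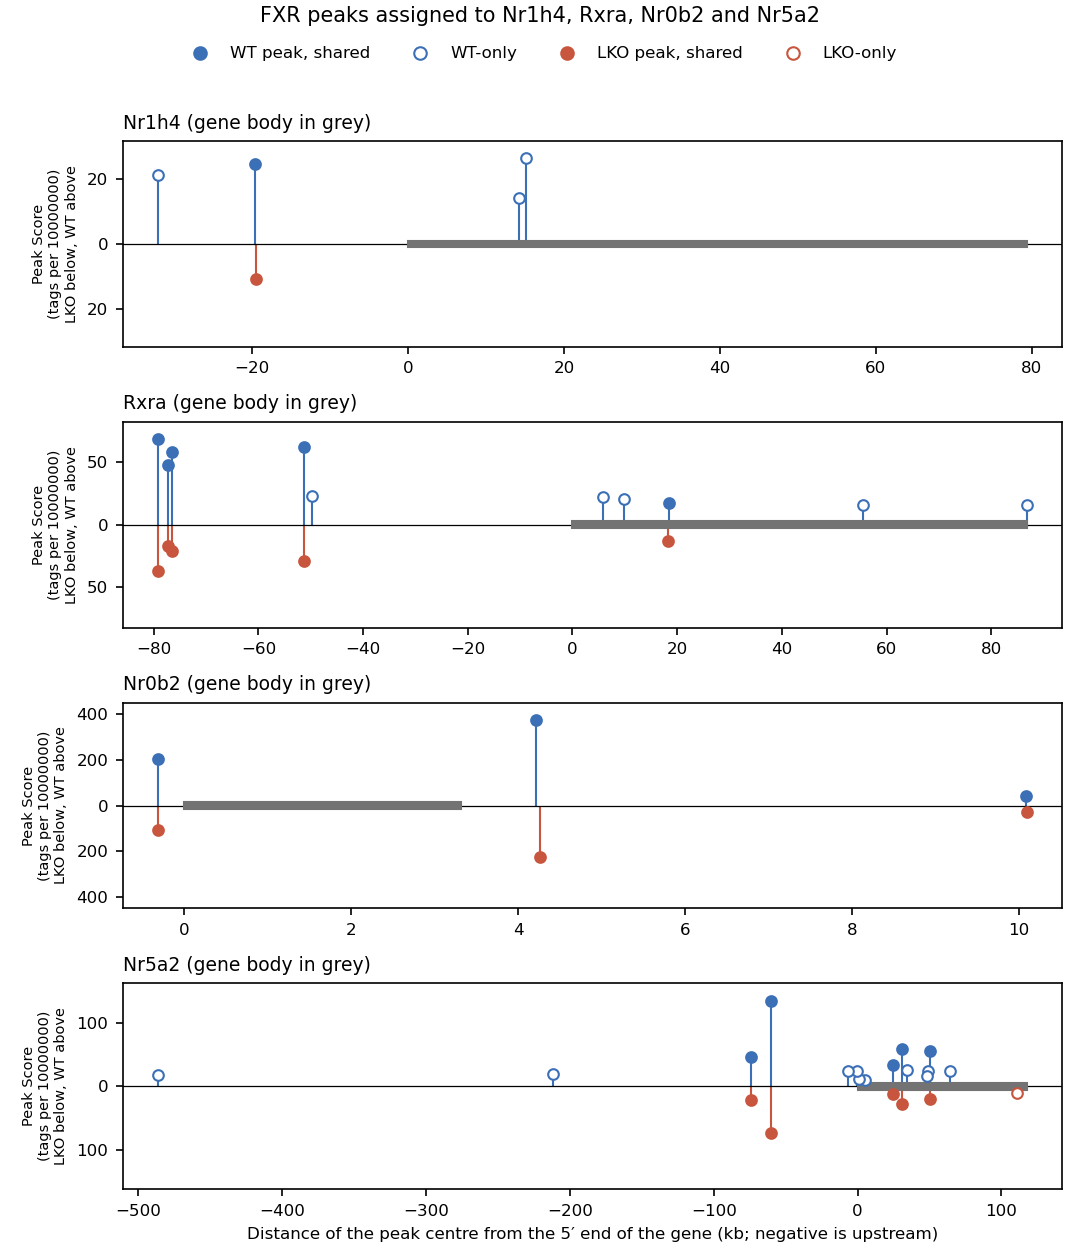
Pooled Peak Score (ChIP tags per 10000000) of each member peak, WT above and LKO below the line, against the distance of the peak center from the 5′ end of the gene in kb. Filled points are peaks that overlapped a peak of the other genotype and open points are peaks of 1 list only; the highest score was 374.3 at the Nr0b2 gene end in WT.

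Most of these sites lay away from promoters. The WT member peaks comprised 15 in introns, 13 between genes, 2 at a transcript end and 2 at a promoter, and the LKO member peaks comprised 5, 8, 1 and 1. Both promoter peaks in WT were those of Nr0b2 and Nr5a2. No peak of promoter class was called at Nr1h4 or Rxra in either genotype. Only the peak at the end of Rxra, in the WT list alone, overlapped an annotated exon.

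FXR sites of the loop genes were then compared between genotypes by overlap of at least 1 bp. Of the 32 WT member peaks, 14 overlapped an LKO peak, which was 43.8% beside 49.5% of all WT peaks. Of the 15 LKO member peaks, 14 overlapped a WT peak, which was 93.3% beside 79.4% of all LKO peaks. The 14 shared peaks comprised all 3 of Nr0b2, 5 of Nr5a2, 5 of Rxra and 1 of Nr1h4. The WT-only peaks comprised 10 of Nr5a2, 5 of Rxra and 3 of Nr1h4, and 1 peak of Nr5a2 was LKO-only.

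Which WT sites had a counterpart went with their strength. At or above the median strength of the WT list, 13 of 17 member peaks were shared, beside 75.5% of all WT peaks in that range. Under the median, 1 of 15 was shared, beside 23.5% of all WT peaks in that range. The shared WT peaks stood between the 36.8th and the 99.9th percentile with a median of 83.8, and the WT-only peaks between the 2.60th and the 63.0th with a median of 39.3. An approximate count of tags was taken back from these log2 values and the library totals. For the WT-only peaks it gave 13.8 to 44.3 tags in WT replicate 1 and 2.70 to 16.0 tags in WT replicate 2. These peaks therefore rested on few reads in WT replicate 2. Those counts do not describe the LKO libraries, which were sequenced more deeply. A site missing from the LKO list was not a measured absence of FXR, since that list holds values only at LKO peaks. The part of strength and depth in the difference in peak number was not tested.

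**Figure D2:**
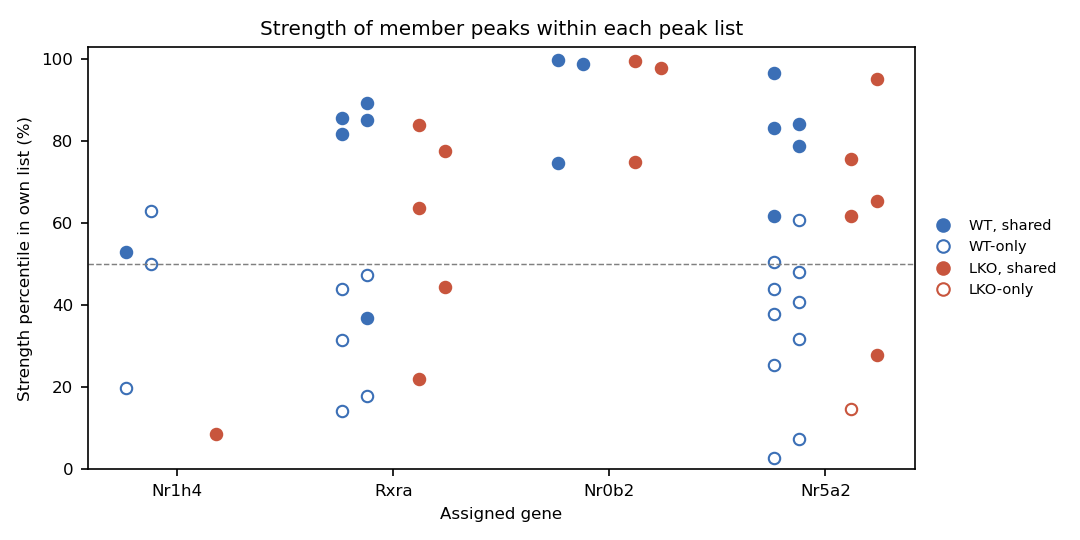
Strength percentile of each member peak in the list of its own genotype, by gene, with the dashed line at the median of the list. Filled points are shared and open points are in 1 list only; the WT-only peaks reach at most the 63.0th percentile, and both strongest Nr0b2 sites stand at the 97.9th or higher in both genotypes.

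Sequencing depth differed most within WT. The file headers give 19022618 tags for WT replicate 1, 2883717 for WT replicate 2, 21287263 and 22637613 for LKO replicates 1 and 2, and 6964271 and 6935001 for the WT and LKO inputs. The median peak was estimated to hold 40.1, 9.0, 36.7 and 34.1 tags in the 4 ChIP libraries in that order. Because the WT and LKO tables had been normalized separately, no test was run between genotypes, and with 2 libraries against 2 the smallest two-sided exact permutation p is 0.333. Levels below are log2 values from which the library's own median over the 9918 shared peaks was subtracted, so that 0 is the typical shared peak. Differences are LKO minus WT means on this scale with the pooled SD of single libraries (n = 2 a genotype), and deposited log2 values are named as such.

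Nr0b2, a target gene through which FXR acts on bile acid synthesis, kept all of its sites. The gene-end peak, 4.22 kb from the start of the gene and past its last exon, ranked 16th of 20040 peaks in WT and 47th of 12495 in LKO. Its deposited values were 8.21 and 9.34 in the WT ChIP libraries and 1.30 in the WT input, and 8.27 and 8.35 in LKO with 0.50 in the LKO input. Relative to the shared-peak median it stood at 3.20 and 3.81 in WT and at 3.23 and 3.50 in LKO. The libraries of both genotypes interleaved, and the difference of -0.14 ± 0.33 was smaller than the spread between replicates.

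The promoter peak of Nr0b2, centered 318 bp upstream of the start, ranked 215th in WT and 264th in LKO. In the deposited values it had 7.40 and 8.27 in WT beside an input of 0.05, and 7.58 and 7.40 in LKO beside an input of 0.37. The relative levels were 2.39 and 2.74 in WT and 2.54 and 2.55 in LKO. Both LKO libraries thus lay between the 2 WT libraries, with a difference of -0.01 ± 0.17. Here the input was low in both genotypes and the peak was one of the clearest of the loop.

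The remaining Nr0b2 peak, 10.1 kb from the start in the interval after the gene, was much weaker, at a percentile of 74.7 in WT and 75.01 in LKO. Its deposited values were 5.19 and 5.52 with an input of -0.31 in WT, and 5.53 and 5.36 with an input of 0.04 in LKO. It stood at 0.18 and -0.02 in WT and at 0.48 and 0.52 in LKO, so that both LKO libraries were above both WT libraries by a mean of 0.42 ± 0.10. This order depended on the scale, since the deposited values overlapped and scaling to library totals gave -0.73. It was the one shared member peak with higher libraries in LKO, beside 29.8% of all shared peaks that showed this order.

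Nr5a2 encodes LRH-1, the activator of Cyp7a1 on which SHP acts. Its strongest site lay 60.2 kb upstream, at the 96.6th percentile in WT and the 95.1st in LKO. The deposited values there were 6.86 and 7.47 in WT and 6.78 and 7.06 in LKO, but the inputs were high as well, at 2.33 in WT and 2.52 in LKO, over the 95th percentiles of 1.85 and 2.49 of their lists. The relative levels of 1.85 and 1.93 in WT and 1.74 and 2.21 in LKO overlapped, with a difference of 0.09 ± 0.24.

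Within the gene, the stronger Nr5a2 sites were in intron 6 of 8, as the deposited annotation numbers it. The site 30.5 kb from the start had deposited values of 5.63 and 6.04 in WT and 5.66 and 5.29 in LKO, with inputs of 1.11 and 0.05. At relative levels of 0.62 and 0.51 in WT and 0.62 and 0.44 in LKO it did not differ beyond its spread, at -0.03 ± 0.11. Farther in, the site 50.1 kb from the start had 5.54 and 6.02 in WT and 5.10 and 4.94 in LKO, with inputs of -0.25 and -0.02. There the relative levels were 0.53 and 0.49 in WT and 0.05 and 0.09 in LKO, and both LKO libraries were under both WT libraries, with a difference of -0.43 ± 0.03. That SD rests on 2 libraries a genotype, with an estimated 19.4 tags in WT replicate 2, and does not measure counting error. The same order was seen at 25.2% of all shared peaks. The other shared Nr5a2 peaks, 24.6 kb into the gene and 74.4 kb upstream, overlapped between genotypes, with differences of -0.29 ± 0.31 and -0.09 ± 0.18.

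The promoter peak of Nr5a2 was found in WT alone. It was centered 340 bp upstream of the start, at the 40.7th percentile, with deposited values of 4.34 and 4.37 in the ChIP libraries and -0.45 in the input. The nearest LKO peak was 24988 bp away. The strongest WT-only site of the gene was 6.46 kb upstream, at the 60.7th percentile, with 4.01 and 5.74 and an input of -0.41. Of its 2 ChIP values the higher one came from the shallow WT replicate 2, as in 30 of 32 WT member peaks and 84.7% of all WT peaks. The LKO-only peak lay 111 kb into the gene in intron 8 of 8, at chr1:136849403-136849607, with deposited values of 4.07 and 3.92, an input of -0.17 and the 14.8th percentile of the LKO list. It was thus a weak site, 46522 bp from the nearest WT peak.

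Rxra encodes the partner with which FXR binds DNA. Its 4 strongest shared peaks were all upstream of the gene, 3 of them within a cluster 76.5 to 79.3 kb from the start. The outermost of the cluster had deposited values of 5.86 and 6.55 with an input of -0.19 in WT, and 6.09 and 5.69 with an input of 0.11 in LKO. Its relative levels of 0.85 and 1.01 in WT and 1.05 and 0.84 in LKO gave a difference of 0.02 ± 0.13, within the spread. No IR1 with up to 2 mismatches was found in this sequence.

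The innermost peak of the same cluster, 76.5 kb upstream, had deposited values of 5.54 and 6.33 with an input of -0.23 in WT and 4.85 and 5.30 with an input of -0.01 in LKO. Relative to the shared-peak median it was 0.52 and 0.80 in WT and -0.19 and 0.45 in LKO, lower in both LKO libraries with a difference of -0.53 ± 0.35. Its neighbor at 77.2 kb, named here for the same order after its values were seen, was 0.20 and 0.64 in WT and -0.65 and 0.01 in LKO, with a difference of -0.74 ± 0.40. The centers of these neighbors were under 1 kb apart, and whether they are separate sites was not tested. The input of the 77.2 kb peak was 1.81 in WT and -0.08 in LKO.

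The Rxra peak 51.4 kb upstream had deposited values of 5.66 and 6.16 in WT and 5.50 and 5.62 in LKO, with inputs of -0.23 and 0.06. Its relative levels were 0.64 and 0.62 in WT and 0.46 and 0.77 in LKO, and the difference of -0.01 ± 0.16 was within the spread. The shared intron 1 peak, 18.3 kb from the start, was weak and varied by more than any other between the LKO libraries, with a difference of 0.23 ± 0.64. Among the WT-only peaks of Rxra the strongest lay 5.87 kb into the gene in intron 1, at the 47.4th percentile, with deposited values of 4.01 and 5.05 and an input of 1.04.

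Nr1h4, the gene of FXR itself, had the fewest shared sites. The shared peak 19.6 kb upstream had deposited values of 4.07 and 5.26 with an input of -0.43 in WT, and 4.50 and 3.25 with an input of -0.19 in LKO. Relative levels were -0.95 and -0.28 in WT and -0.54 and -1.60 in LKO, a difference of -0.46 ± 0.63 with overlapping libraries. It stood at the 52.9th percentile in WT and the 8.48th in LKO. The peak lies in an annotated MERVL_2A-int element, an LTR retrotransposon fragment, and 55.5% of its bases are repeat-masked. Since alignments had been limited to uniquely mapped reads, reads matching more than 1 copy of such an element would not be counted, including any from this site. The strongest WT-only site of the gene was in intron 1, 15.1 kb from the start, over a B1F1 SINE, at the 63.0th percentile with deposited values of 4.30 and 5.58 and an input of -0.39. Within the WT list this was above the shared Nr1h4 peak, yet the nearest LKO peak was 34615 bp away.

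**Figure D3:**
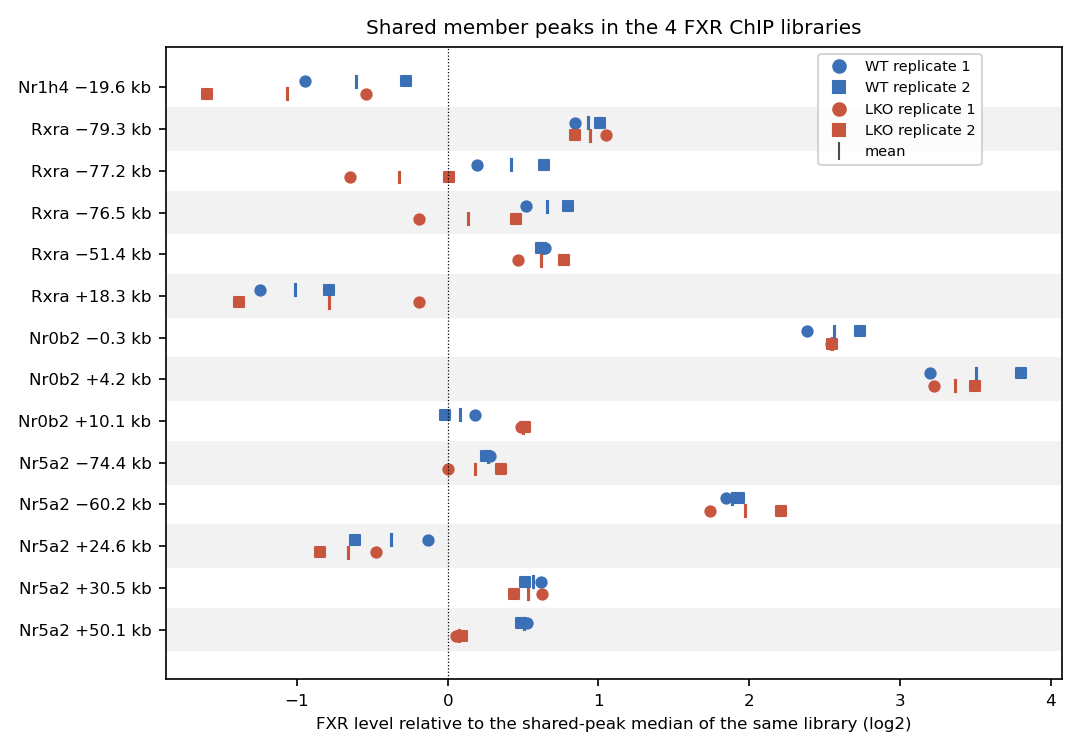
Level of each of the 14 shared member peaks in the 4 ChIP libraries, as log2 over that library's shared-peak median, with distances from the 5′ end of the gene. Circles are replicate 1, squares replicate 2 and ticks the mean; Nr0b2 at the gene end is highest in all libraries and the 3 peaks at Nr5a2 +50.1 kb, Rxra −77.2 kb and Rxra −76.5 kb are lower in both LKO libraries.

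Across the 14 shared member peaks the order of the strongest was the same in all 4 ChIP libraries: the Nr0b2 gene end, the Nr0b2 promoter, the Nr5a2 site 60.2 kb upstream and the Rxra site 79.3 kb upstream. No library of one of these sites overlapped a library of the next. Between genotypes the median difference was -0.06, with a range from -0.74 to 0.42, beside a median of 0.03 and quartiles of -0.32 and 0.41 over all 9918 shared peaks. The median level of the members was 0.52 and 0.57 in the WT libraries and 0.26 and 0.45 in the LKO libraries. Libraries overlapped at 10 of the 14, which left 4 of 14 without overlap beside 55.1% of all shared peaks. Both LKO libraries were higher at 1 of 14, beside 29.8% of all shared peaks, and both were lower at 3 of 14, beside 25.2%. Leaving out WT replicate 1, WT replicate 2, LKO replicate 1 or LKO replicate 2 gave 7, 7, 12 and 10 peaks without overlap, with 3 values in place of 4 and with 80.6, 76.3, 76.7 and 76.6% of all shared peaks.

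**Figure D4:**
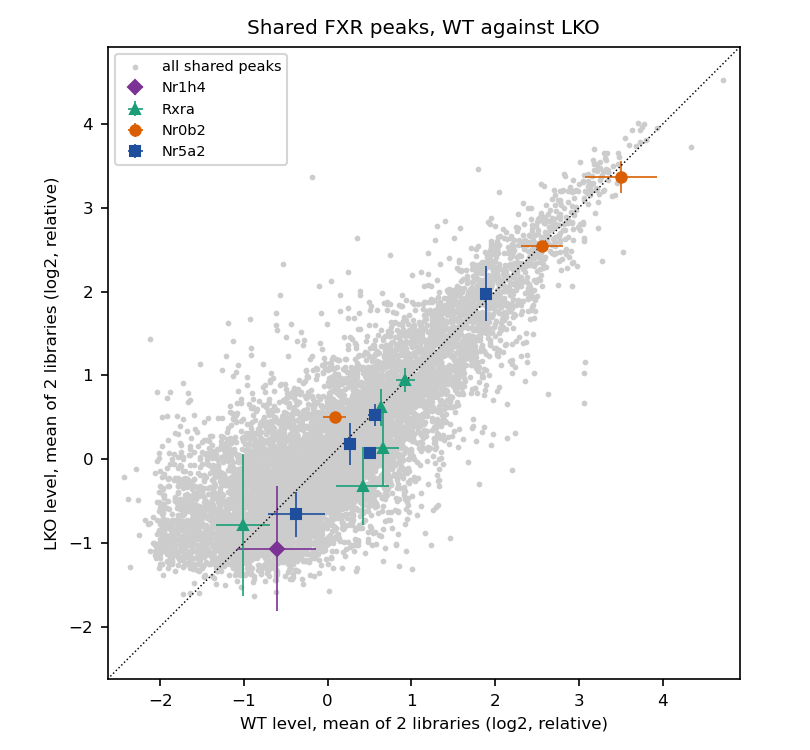
Mean relative level (log2) of all 9918 shared peaks in LKO against WT in grey, with the 14 member peaks in color by gene and bars of 1 SD over 2 libraries. The dotted line marks equal levels; the 2 strong Nr0b2 peaks and the Nr5a2 peak at 1.89 in WT lie along it at the upper end.

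The scale moved the size of these differences and the sign of 4 of them. With levels centered on that median, 10 of the 14 were lower and 4 higher in LKO, whereas with the deposited values 13 were lower and 1 higher, and with scaling to library totals all 14 were lower. On that last scale the median over all shared peaks was itself -1.12, and that of the members -1.21. The same was seen in the pooled Peak Score, the number of ChIP tags in the pooled libraries per 10000000 tags. At all 14 the score was higher in WT, by 1.31 to 2.89-fold, beside a median of 1.97-fold over all shared peaks. At the Nr0b2 gene end the score was 374.3 in WT and 223.1 in LKO, and at its promoter it was 202.7 and 108.4. Whether FXR binding or the yield of the immunoprecipitation differed between genotypes cannot be told apart with these libraries, nor can the share of hepatocytes in the liver and the binding per cell. Each change of scale shifted all 14 differences down by the same amount, so a peak lower with centered levels had to be lower on the other scales. The 3 peaks that were lower in both LKO libraries had differences from -1.07 to -0.76 with the deposited values.

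Other genes of the loop were described by their counts of peaks. The other RXR genes, Rxrb and Rxrg, had none. Of 9 coactivator genes 5 had a peak in each genotype, with 21 peaks in WT and 11 in LKO, 10 of them shared. Over all peaks, 49.5% of the WT list and 79.4% of the LKO list were shared. The share of all genes that had a peak was not computed, so the gene counts are a description only. The 3 further genes listed here for their ties to SHP each had a peak in both genotypes. Cyp7a1 had 7 peaks in WT and 3 in LKO, Cyp8b1, the gene of the sterol 12-alpha-hydroxylase that sets the type of bile acid made, had 1 in each, and Hnf4a, a hepatocyte nuclear receptor, had 2 in each.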

How the data were processed

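FXR ChIP and input libraries of WT and LKO liver were analyzed from the deposited peak tables. The authors aligned reads to mm10, kept unique alignments and called peaks in HOMER on pooled ChIP libraries against input, and the submitters' processing notes name Bowtie 1.2 and HOMER 4.10. The per-library columns hold deposited log2 tag values, normalized to total tags separately in each table. They are taken to be regularized log2 values from the command in the headers and from the values, though the headers do not say so. Such values shrink the spread between libraries most at low counts and make tag estimates approximate. The Peak Score is a deposited pooled signal in tags per 10000000. Deposited columns comparing ChIP with input (fold changes and p-values, thresholds log2 1 and adjusted p 0.05) were not used.

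Groups followed the labels. Where nothing says that libraries came from separate animals, their spread may be technical. Members were peaks by assigned gene name. Tag numbers were estimated from log2 values and library totals and cover counting only. Overlap, levels and motifs were computed in Python 3.11.15 (pandas 2.3.3, numpy 2.4.6, pysam 0.24.0) with GRCm38 sequence and RefSeq genes. Only the overlap and motif steps were tested, on shifted peaks and on IR1 letters planted in random sequence. Library values are given for every Nr0b2 peak, every promoter peak, the 3 strongest shared peaks and the strongest 1-list peak of each gene. Peaks with an IR1 and 1 Rxra peak were named besides. Some genes and sequences are not reported here. The members and lists were chosen with earlier results of these data known. Alternatives changed strength, tag and input filters, assignment, overlap, scale, libraries and motif limits.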

Additional observations from a re-analysis of the deposited data

How the results depend on the processing

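Of 34 alternative settings over the counts, shared levels and motif matches, 22 stayed within 1.5 times the reported count, or for the median difference within 1 pooled SD of the library medians (0.096), and 12 moved farther. The sign of the median difference was the same in all of its alternatives. With the deposited values and library totals it could not change, because these scales shift every difference down. The reported median of -0.06 was itself smaller than that SD. The WT list held 17 member peaks at or above the median strength and 15 with at least 10 estimated tags in both ChIP libraries, in place of 32. The latter follows from the depth of WT replicate 2. The median LKO minus WT level was -0.39 with the deposited values and -1.21 with scaling to library totals, an alternative chosen after seeing the data, under which 13 of the 14 shared peaks did not overlap between genotypes, beside 86.8% of all shared peaks. Leaving out 1 library gave 7 to 12 such peaks. With 1 mismatch the IR1 count was 1 in WT and 1 in LKO, and within 200 bp of the center it was 6 in WT and 4 in LKO. No paired analysis was possible because the labels tie no WT library to an LKO library by animal, litter or batch, so that the replicate numbers name the libraries only.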

Other observations

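Assignment by nearest promoter left out peaks beside the loop genes. Within 20 kb of the genes, 3 WT and 2 LKO peaks carried another gene name. Of these, 2 WT peaks between Nr0b2 and Gpatch3, at chr4:133569322-133569532 and chr4:133570320-133570530, were assigned to Gpatch3 and stood at the 94.9th percentile of the WT list. Each overlapped an LKO peak, at the 87.8th and 88.8th percentiles. Their deposited input values were 2.32 and 2.67 in WT and 0.16 and 0.17 in LKO. The remaining WT peak lay in intron 7 of 8 of Nr1h4, carried the name Gas2l3 and stood at the 10.9th percentile.

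Input values fell in separate bands. In the WT list, 70.2% of all peaks had a deposited input of 0.36 or less and no other peak was under 0.96, and 24 of the 32 member peaks were in the lower band. In the LKO list 13 of 15 member peaks were in the band up to 0.60, which held 72.0% of all peaks. Equal sets of 3 deposited values were common, at 79.5% of WT peaks. The WT-only peaks 48.8 kb into Nr5a2 and 49.7 kb upstream of Rxra were such a case, each with 4.32, 4.56 and -0.44.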
